A study of Mus musculus with 6 samples.

Results

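U1 small nuclear RNA (snRNA) is the RNA core of the U1 small nuclear ribonucleoprotein (snRNP), which recognises the 5′ splice sites of nuclear precursor mRNAs. MARIO (mapping RNA interactome in vivo) ligates nearby RNA fragments held on the same crosslinked protein, so that each chimeric molecule reads RNA1, linker, RNA2. Read pairs with a U1 end were taken as those in which either fragment bore the name U1 and the type snRNA in the authors' annotation. After read pairs with equal coordinates of both fragments were collapsed to 1, U1 was found in 24811 of 2310134 read pairs of ES-1, 4183 of 1241787 of ES-2, 18956 of 1655476 of ES indirect and 591 of 373978 of MEF. Every one of the 53853 U1 ends lay on 1 of 124 U1 genes, out of 206 annotated.

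ES-1 and ES-2 are 2 assays on feeder-free mouse embryonic stem (ES) cells, line E14 from strain 129/Ola, crosslinked with ultraviolet light of 254 nm, with RNA first cut by RNase I, to about 1000 nt in ES-2 and to that size or longer in ES-1. Ribosomal RNA was removed from ES-1 by a duplex-specific nuclease and from ES-2 by the GeneRead kit. ES indirect used the same cells but formaldehyde and EGS, which also bridge protein to protein, then sonication to about 1000 nt and the duplex-specific nuclease. MEF came from embryonic fibroblasts of strain C57Bl/6, with light of 254 nm, RNase I to about 300 nt and the GeneRead kit. In all 4, proteins were biotinylated on cysteines and held on streptavidin beads, and a biotin-tagged linker was joined to RNA 5′ ends before ligation. ES indirect and MEF are single libraries, so protocol, cell type and library cannot be told apart there. ES merged stands for ES-1 and ES-2 together, and the 2 brain libraries of the series were not used here.

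Labels were checked on exons: 8 ES genes, including Pou5f1 and Nanog, took 307 to 486 of every 100000 sense exonic ends in the 3 ES libraries and 17.8 in MEF. Of 8 fibroblast genes, including Col1a1, the ends numbered 152 to 390 per 100000 in the ES libraries and 2017 in MEF. Fn1, which encodes fibronectin, made up most of those of the ES libraries (550 of 617 in ES-1) and lay there at 131 to 347 per 100000, against 320 in MEF. Without it the range was 21.1 to 42.3 against 1697. Between 0 and 12 U1 read pairs had equal coordinates in a pair of libraries, and the largest share was the 10 that ES indirect and MEF had in common, 1.69% of the U1 read pairs of MEF. The files held 474526 to 3302146 lines per library, of which 5.37% (ES-2) to 49.9% (ES indirect) repeated the coordinates of another line. In 62.8% of the lines of ES indirect, 12.4% of ES-1, 2.40% of ES-2 and none of MEF both fragments filled the read, with 90 and 100 nt, so that no junction base is known for them.

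The 5′ end of U1 pairs with the first bases of an intron and the last bases of the exon before it, its second stem-loop binds the U1A protein, and its Sm site near the 3′ end carries the ring of Sm proteins. U1 is copied many times in the mouse genome, and besides the form of adult tissues there are embryonic variants, named Rnu1b in RefSeq, that differ around the U1A-bound loop. In NCBIM37, the build of the files, 24 copies that kept the 5′ end and the Sm site resembled 1 of 2 forms. Of these, 15 resembled the form called A here, of 164 nt, and 9 the form called B, of 166 nt. Other copies kept both stretches but resembled neither form. The forms differed at 6 aligned positions (T60C, T62C, C73T, C74G, A77G and T156G, form A first, counted from the 5′ end of form A) and by 2 extra bases in B. Sequences are shown because the junctions, the form shares and the splice sites described later refer to them. Form A is the copy at chr12:55820150-55820313 and form B the copy at chr3:96263947-96264112, both on the minus strand. Capitals mark the bases that pair with 5′ splice sites (bases 3 to 11) in the first line, the differences between the forms in the loop lines, the Sm site (bases 125 to 133 of A) in the fourth and the last bases of the RNA in the 3′ end lines. The 5′ end and the Sm site have the same letters in both forms.
Forms A and B, bases 1 to 30: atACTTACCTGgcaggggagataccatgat
Form A, bases 55 to 84: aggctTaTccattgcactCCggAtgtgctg
Form B, bases 55 to 84: aggctCaCccattgcacTtTGggGtgtgct
Forms A and B, around the Sm site: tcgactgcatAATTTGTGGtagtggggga
Form A, bases 137 to 164: tgggggactgcgttcgcgctctcccCTG
Form B, bases 139 to 166: gggggagctgcgttcgcgcgctcccCTG

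U1 took 1.07% of the collapsed read pairs of ES-1 (95% Wilson interval 1.06 to 1.09), 0.337% of ES-2 (0.327 to 0.347), 1.15% of ES indirect (1.13 to 1.16) and 0.158% of MEF (0.146 to 0.171). ES indirect lay nearest to ES-1, ES-2 was lower although it used the same cells, and MEF was lowest. With every line counted, U1 took 0.646% of ES indirect, below the 0.919% of ES-1, and with both fragments of at least 20 nt it took 0.312% of MEF, whose share with equal positions on U1 collapsed was 0.0939%. All intervals cover the counting of read pairs in 1 library and no spread between libraries. The 5 leading loci held 41.0% of the U1 ends. They were 2 of form B on chromosome 3 (96263947-96264112 with 5931 ends and 96290478-96290642 with 4312) and 3 of form A on chromosome 12 (55820150-55820313 with 4135, 55839446-55839609 with 4113 and 55835542-55835705 with 3567). Because 7 copies were identical to form A and 3 to form B, the locus of an end could not be told among them, and results are given for U1 as a whole or by form.

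The forms were told by bases 56 to 64, which hold the differences T60C and T62C. Among fragments that covered them and were joined to another RNA, form B made up 25.2% (24.1 to 26.3, n = 6295) in ES-1, 44.3% (40.2 to 48.6, n = 539) in ES-2, 53.0% (51.2 to 54.7, n = 3089) in ES indirect and 17.4% (9.09 to 30.7, n = 46) in MEF. Both forms were therefore present in all 4 libraries, with most form B in ES indirect. The share moved with the length of the fragments: among those that reached base 80, it was 12.7% (11.6 to 13.8, n = 3514) in ES-1, 11.5% (7.30 to 17.6, n = 148) in ES-2, 45.6% (43.5 to 47.8, n = 2033) in ES indirect and 6.90% (1.91 to 21.96, n = 29) in MEF. In these longer fragments the intervals of ES-1 and ES-2 overlapped, whereas ES indirect lay above both. The libraries differ in fragmentation, and its part in the form shares was not tested.

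**Figure D1:**
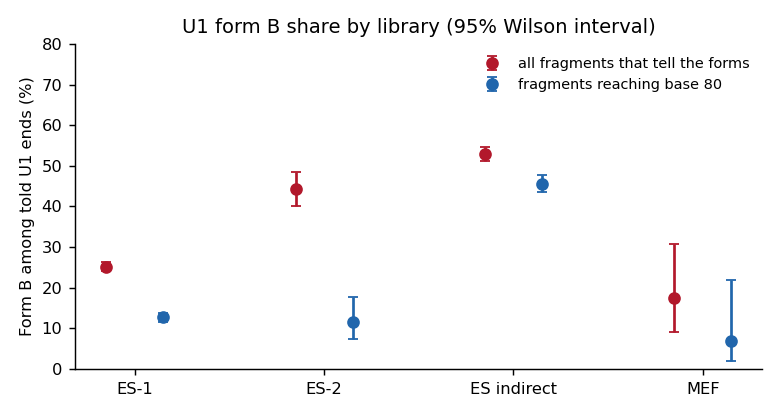
Share of form B (%, y axis) among U1 ends joined to another RNA whose form could be told, for each of the 4 libraries (x axis), for all such fragments and for those reaching base 80. Points are shares and bars are 95% Wilson intervals, and ES indirect lies at 53.0 and 45.6% while ES-1 falls from 25.2 to 12.7%.

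Junctions on U1 were read as the last base of a fragment at RNA1 and the first base of a fragment at RNA2, in form A numbering. With U1 at RNA1, the commonest last base was at the very 3′ end. Base 164 held 17.1% of 15028 ends in ES-1, 45.7% of 2872 in ES-2 and 20.2% of 6030 in ES indirect, and position 165, the genomic base after the RNA's last one in form A, 13.9, 13.4 and 20.3%. With U1 at RNA2, the linker was joined inside the molecule. In ES-1, 20.7% of 6759 ends began at base 104 and in ES-2 19.8% of 989, whereas in ES indirect 20.1% of 7062 began at base 70 and 8.68% at base 106. The 2 commonest last bases at RNA1 were thus the same in these libraries, while the commonest first base at RNA2 in ES indirect was not that of the ES-1 and ES-2 assays. The segments of U1 counted next were chosen after the profile was seen. Starts at bases 88 to 109 made up 63.3% in ES-1, 55.9% in ES-2 and 18.1% in ES indirect. Starts at bases 66 to 78, from the loop sequence that U1A binds (bases 66 to 74) to a few bases past it, made up 25.8, 26.2 and 44.0%. Starts at bases 131 to 137, at the end of the Sm site, made up 0.607, 0.607 and 14.9%. The same starts were frequent for different partners. In ES-1, 20.9% of the U1 fragments joined to ribosomal RNA, 22.3% of those joined to mRNA and 19.0% of those joined to snoRNA began at base 104, and in ES indirect 21.8, 19.6 and 13.5% began at base 70. MEF had 148 such ends, the commonest at base 134 (8.78%). Of the 148, 27.0% began at bases 88 to 109, 24.3% at bases 66 to 78 and 20.9% (15.2 to 28.2) at bases 131 to 137.

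**Figure D2:**
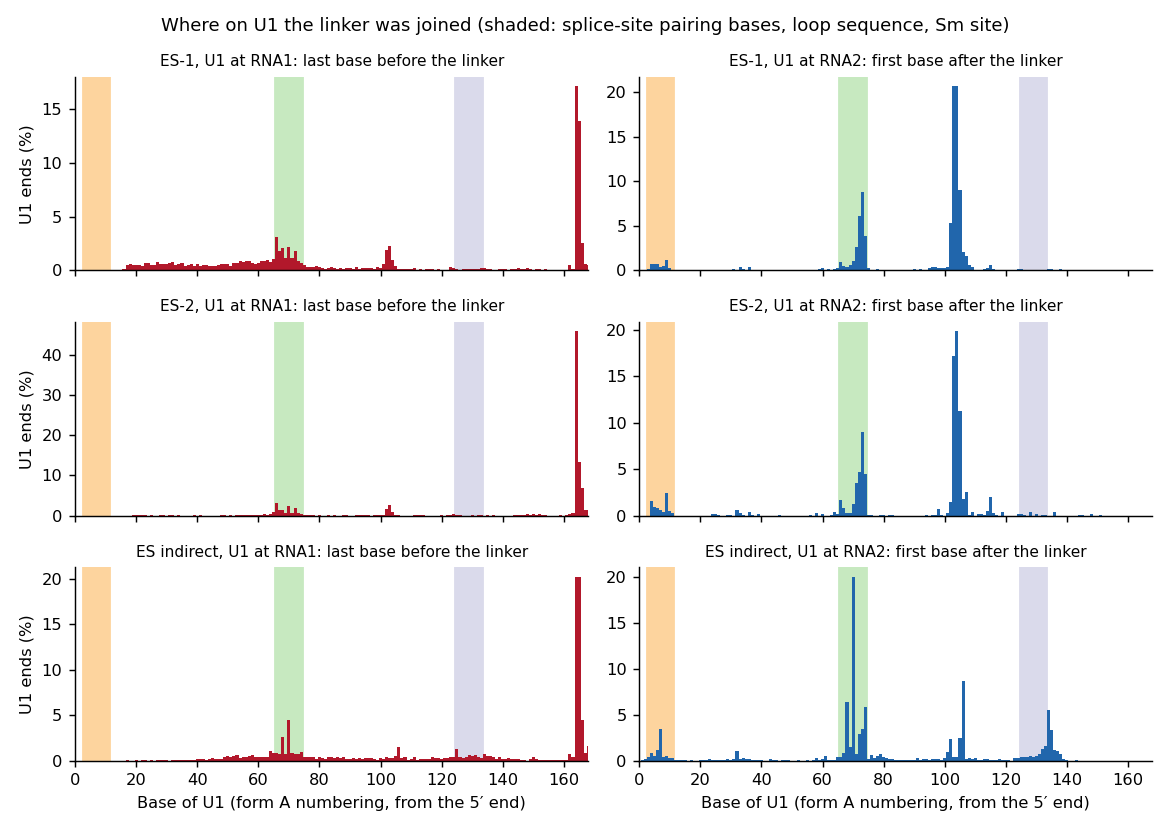
Share of U1 ends (%, y axis) whose last base before the linker (left, U1 at RNA1) or first base after it (right, U1 at RNA2) fell at each base of U1 (x axis, form A numbering), for ES-1, ES-2 and ES indirect. Shading marks the splice-site pairing bases, the loop sequence and the Sm site, and the highest bar on the right is at base 104 in ES-1 and ES-2 and at base 70 in ES indirect.

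U1 lay at RNA1 in 69.1% (ES-1) and 74.4% (ES-2) of its read pairs with other RNAs, and in 46.8% (ES indirect) and 41.8% (MEF). The fragments seldom held the bases that pair with 5′ splice sites. Bases 3 to 11 were wholly covered in 17.2% of the sense, placed U1 fragments of ES-1 (n = 23783), 5.04% of ES-2 (n = 3910), 1.36% of ES indirect (n = 14168) and 1.30% of MEF (n = 230). The Sm site was covered in 48.1, 39.4, 60.9 and 31.7% of the same fragments. The Sm site was thus held more often than the pairing bases in each of the 4 libraries. The sequenced fragments of ES indirect nearly all lacked the pairing bases. Reads had 90 nt at RNA1 and 100 nt at RNA2, shorter than U1, so a fragment need not show all of the ligated RNA. Whether the ligated RNA held the 5′ end is not known from these fragments.

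Both ends were named U1 in 729 of the U1 read pairs of ES-1 (2.94%, 2.74 to 3.16) and 61 of ES-2 (1.46%, 1.14 to 1.87). In ES indirect it was 4206 (22.2%, 21.6 to 22.8) and in MEF 316 (53.5%, 49.4 to 57.5). Many of these pairs had equal positions on U1. With those collapsed, the shares were 1.85, 1.37, 13.7 and 22.8% (80 of 351) in the same order, and without read pairs of 90 and 100 nt that of ES-1 was 1.05%. In 494 self pairs of ES-1, 23 of ES-2 and 525 of ES indirect the fragments filled both reads, so that no junction was seen. Whether these were ligated or were 1 continuous stretch of U1 was not tested. Ligated self pairs can come from 1 molecule or from neighbouring ones, which the reads do not in general distinguish. A single molecule holds 1 form and each base once. In ES indirect, 270 self pairs had overlapping fragments in reverse order, with RNA1 3′ of RNA2, and 11 of these filled both reads. How many self pairs came from neighbouring molecules was not tested. Their arrangement differed between libraries. In ES-1, 57.5% of the self pairs had RNA1 5′ of RNA2 with the fragments overlapping, and 403 of these 419 filled both reads, so that no junction was seen. In ES-2, the commonest arrangement was the reverse one, with RNA2 wholly 5′ of RNA1 (29 of 61). In ES indirect, 40.1% of the self pairs had RNA1 ending where RNA2 began, within 2 bases. The commonest such point was base 70 (458 read pairs), then base 68 (227), base 74 (116) and base 106 (113). The first and the last of these were also the commonest starts of U1 joined to other RNAs in that library. In MEF, 304 of 316 self pairs (96.2%) had an end antisense to U1, and in 300 of these 304 one fragment lay inside the span of the other. Among self pairs with both ends placed on U1, an antisense end was found in 3 of 60 in ES-2 (5.00%, 1.71 to 13.7), in none of 713 in ES-1 (interval up to 0.536%) and in none of 3864 in ES indirect (up to 0.0993%). Among those with an end not placed, 1 in each of the 3 ES libraries and 6 in MEF had one. Both ends were placed at 1 locus in 8.20 to 16.8% of the self pairs, though near-identical copies limit what a locus can tell. Where both ends told their form, they had the same one in 22 of 25 self pairs of ES-1, 5 of 5 of ES-2 and 24 of 25 of ES indirect. Both fragments of such a pair held the bases that tell the form, which a molecule has only once. The agreement expected from the form shares is not given, so these counts do not tell how the pairs arose.

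**Figure D3:**
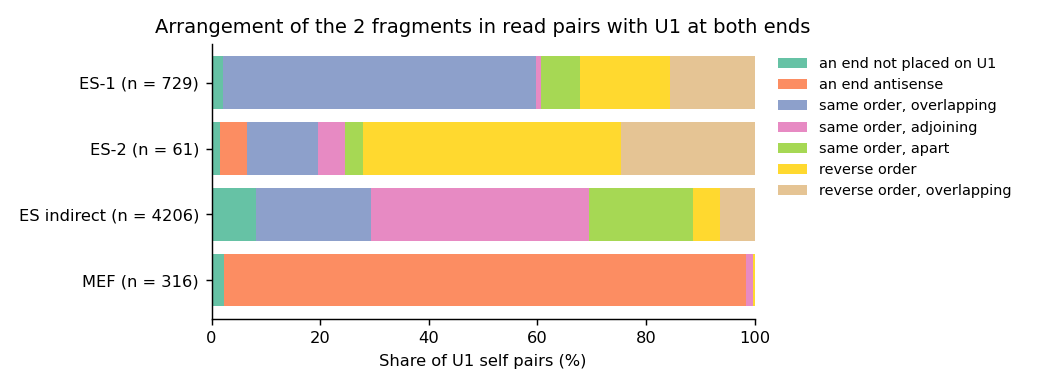
Share of U1 self pairs (%, x axis) by the arrangement of the fragments on U1, for each library (rows, with the number of self pairs). Same order means RNA1 lies 5′ of RNA2, reverse order the opposite. The adjoining class is 40.1% of ES indirect and the class with an antisense end is 96.2% of MEF.

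Ribosomal RNA was the commonest partner of U1 in the 3 ES libraries and in MEF. It made up 63.9% of 24082 partner ends in ES-1, 60.5% of 4122 in ES-2, 39.2% of 14750 in ES indirect and 30.9% of 275 in MEF. Messenger RNA made up 9.58, 16.1, 36.1 and 25.5% of the partner ends of these libraries, in the same order, and small nucleolar RNA (snoRNA), which guides the modification of other RNAs, 15.1, 6.62, 1.15 and 6.55%. The other spliceosomal snRNAs U2, U4, U5 and U6, as a group, had ribosomal and mRNA partners in similar shares, in ES-1 66.8% ribosomal, 8.42% mRNA and 14.2% snoRNA, in ES-2 61.8, 14.8 and 8.18%, and in ES indirect 39.0, 32.9 and 2.01%. In ES indirect this group was joined to an snRNA in 5.62% (5.20 to 6.08), against 1.64% (1.45 to 1.86) for U1. Read pairs within the group were left out, whereas U1 could have its members as partners. These snRNA shares are therefore over unlike sets of partners. In ES indirect the partners of snoRNA were mRNA in 17.1% (16.7 to 17.5) and snoRNA in 29.5%, beside 36.1 and 1.15% for U1. In ES-1 the partners of snoRNA were mRNA in 8.73% and snoRNA in 14.4%, close to those of U1. The shares of U1 and snoRNA have unlike bases. U1 self pairs were left out, whereas pairs of differently named snoRNAs were kept and counted at both ends. How much of the gap in ES indirect comes from this was not tested. For mRNA, the shares of U1 and of the other snRNAs were close to each other in the ES libraries, whereas those of U1 ranged from 9.58 to 36.1% between libraries. Among the ribosomal partners of U1, the large subunit RNA took 68.1% of the ends in ES-1, 72.7% in ES-2 and 85.9% in MEF. In ES indirect it took 54.6%, and 34.5% bore the name of the precursor, Rn45s.

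**Figure D4:**
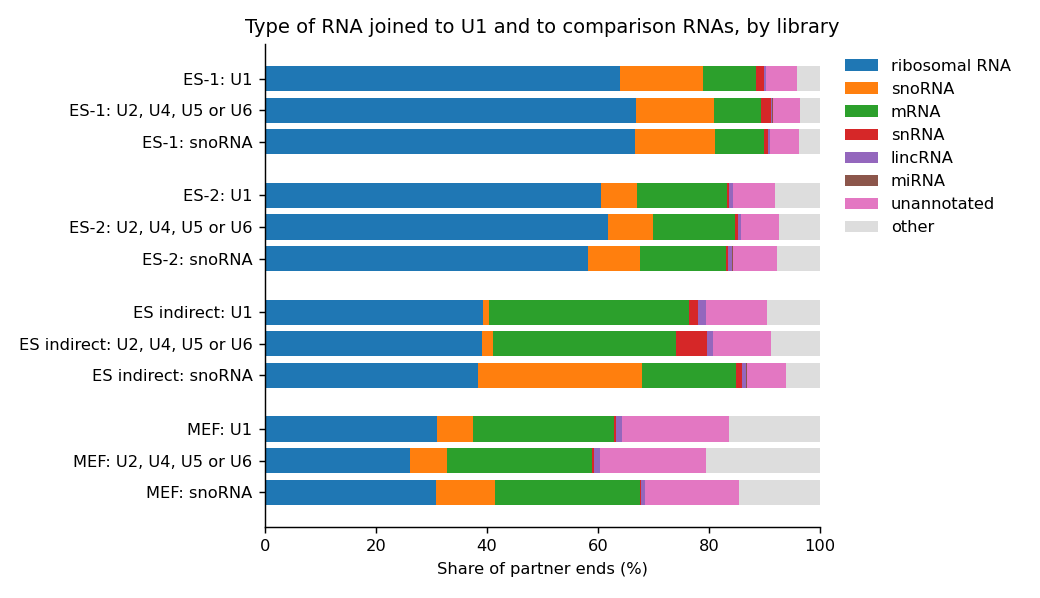
Share of partner ends by RNA type (%, x axis) for ends joined to U1, to U2, U4, U5 or U6 and to snoRNA, in each library (rows). The ribosomal and mRNA parts of the U1 bars resemble those of the other snRNAs, with mRNA at 36.1% in ES indirect against 9.58% in ES-1. U1 self pairs and pairs within U2, U4, U5 and U6 are left out, while pairs of differently named snoRNAs are counted at both ends.

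For single partners, read pairs that joined U1 to a different, distant and non-ribosomal RNA were compared with the number expected from the ends of both RNAs in the same library. The threshold for a call was 0.05 in a one-sided Fisher's exact test, adjusted over all RNA pairs observed, with at least 3 read pairs. Such p-values cover the counting of read pairs in 1 library and no spread between samples. In ES merged, 114 of the 2249 partners of U1 were called (5.07%), where 0.895% of all RNA pairs were. In ES-1 it was 115 of 1809, against 1.09% of all pairs, in ES-2 12 of 769 against 0.719%, in ES indirect 118 of 3436 against 2.54%, and in MEF 1 of 101 against 0.842%. Of the 115 partners called in ES-1, 4 were also called in ES-2, which is 3.48% of the former and 33.3% of the latter, and 1 was called in ES indirect. How often called pairs of other RNAs recurred is not given here, so these shares are not set against them. When U1 read pairs with equal positions on U1, whatever the copy, were collapsed, an alternative chosen after the data were seen, the calls fell. Other read pairs were not collapsed in this way. In ES merged 24 of 2249 partners were then called (1.07%), beside 1947 of 227775 of all RNA pairs. In ES-1 it was 18 of 1809 (0.995%) beside 1375 of 135633. The share of U1 there thus lay near that of all pairs. In ES indirect 35 of the 3436 were called, where 2.54% of all pairs were before collapsing. Of the called mRNAs, 29 of 100 in ES-1, 7 of 8 in ES-2 and 4 of 110 in ES indirect had no fragment free of short length, linker pieces, ribosomal sequence or mismatch to its stated position.

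The 4 partners called in both ES assays were SCARNA6, SNORA22, Sirt5 and Nusap1. SCARNA6 is a small Cajal body RNA, of a class that guides the modification of spliceosomal snRNAs. It was joined to U1 in 55 read pairs of ES-1, 1.95 times the expected number (adjusted exact p = 6.27e-04), and in 6 of ES-2 (4.39 times, adjusted exact p = 0.0174). Where U1 was at RNA2 in ES-1, all 37 fragments shorter than the read began at bases 88 to 109, where 63.3% of all such U1 ends at RNA2 did. With equal positions on U1 collapsed, 18 read pairs remained in ES-1 (0.93 times) and 4 in ES-2 (3.14 times), and neither was called. In ES-1, 22 of the 55 SCARNA6 fragments held pieces of the linker, and without such fragments 33 read pairs were left (1.26 times, adjusted exact p = 0.22) and the call was lost. That filter was applied to U1 read pairs only. In ES-2 the call was lost with both fragments of at least 20 nt (4 read pairs, 3.39 times, adjusted exact p = 0.0679). SNORA22, an H/ACA snoRNA, was joined to U1 in 52 read pairs of ES-1 (2.01 times, adjusted exact p = 4.86e-04) and 6 of ES-2 (4.74 times, adjusted exact p = 0.0143). Of its 41 U1 fragments at RNA2 in ES-1, 15 were placed and shorter than the read, and 13 of these began at bases 66 to 78, where 25.8% of all such U1 ends at RNA2 did. SNORA22 kept its call with equal positions on U1 collapsed, with 32 read pairs in ES-1 (1.77 times, adjusted exact p = 0.0167) and 6 in ES-2 (5.02 times, adjusted exact p = 0.0126). It was not called in ES-1 without read pairs of 90 and 100 nt (23 read pairs, 1.06 times). ES indirect had no read pair of U1 with either RNA. The fragments named Sirt5 (9 in ES-1, 5 in ES-2) and Nusap1 (8 and 4) all contained a run shared with ribosomal fragments, and none of the Sirt5 fragments matched its stated position.

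Of 8 other spliceosomal snRNAs, 7 were joined to U1 in ES-1, 4 in ES-2 and 6 in ES indirect. In ES-1 2 were called, where 115 of all 1809 partners were, and in ES-2 and ES indirect none. U2, which pairs with the branch site, had the most read pairs: 162 in ES-1 (1.22 times the expected number, adjusted exact p = 0.0340), 12 in ES-2 (1.35 times, adjusted exact p = 0.27) and 114 in ES indirect (1.09 times, adjusted exact p = 0.24). In ES-1 and ES-2 most of these read pairs had U1 at RNA2. In ES-1 it was 145 of the 162, 2.096 times the expected number with U1 kept at RNA2 only (adjusted exact p = 3.20e-13). The other 17 had U1 at RNA1 (0.27 times). In ES-2 it was 11 of 12 (2.99 times, adjusted exact p = 0.0127). The expected numbers took the ends of U2 on either side of the linker. Whether the order was particular to this pair was therefore not tested. In ES-1, 120 of the 145 U1 fragments were placed and shorter than the read, and 110 of these began at bases 88 to 109 of U1. In ES indirect the 114 split into 50 with U1 at RNA1 and 64 at RNA2, at 1.27 and 0.98 times. In an alternative chosen after the data were seen, U1 read pairs whose partner fragment held linker pieces were left out, while others were kept. U2 was then called in ES indirect, with 113 read pairs (1.40 times, adjusted exact p = 0.00448). Under this filter of U1 read pairs alone, the expected number fell from 104.9 to 80.9, while the read pairs fell from 114 to 113. U2 had fewer than expected there without read pairs of 90 and 100 nt (90, 0.81 times, adjusted exact p = 0.99) and with every line counted (0.97 times). With equal positions on U1 collapsed, U2 had 111 read pairs in ES-1 (1.19 times, adjusted exact p = 0.11) and was not called. U4, which unwinds from U6 as the spliceosome is activated, had 66 read pairs in ES-1 (2.25 times, adjusted exact p = 7.84e-07), 1 in ES-2 and 15 in ES indirect (0.51 times). All 66 had U1 at RNA1, and 30 of the 63 placed fragments shorter than the read ended at base 164. Collapsed on U1 positions, 26 remained (1.30 times, adjusted exact p = 0.22), below the threshold. U5, U6 and U12 were not called. In ES-2, U5 and U6 had 1 each. U5 had 23 read pairs in ES-1 against 35.0 expected and 30 in ES indirect against 45.1, U6 18 against 34.8 and 42 against 52.5, and U12 20 against 15.9 and 9 against 9.43. U11 had 2 in each of these libraries and U4atac 1 in ES-1. U6atac had no U1 read pair in any of the 4 libraries.

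Of 10 lincRNAs, Malat1, a nuclear RNA of speckles, was called in ES indirect. It had 55 read pairs with U1 where 22.9 were expected (2.40 times, adjusted exact p = 3.91e-07). All 55 fragments were sense, matched their stated position and held neither linker pieces nor ribosomal runs. They had 41 distinct starts, which ran from 65 to 6454 nt into the 6982 nt of the gene, with a median of 3412. The call held with U1 at RNA1 (18 read pairs, 2.18 times, adjusted exact p = 0.00976), with U1 at RNA2 (37, 2.62 times, adjusted exact p = 1.35e-05) and with equal positions on U1 collapsed (46, 2.33 times, adjusted exact p = 1.34e-05). In ES-1 Malat1 had 3 read pairs with U1 where 9.50 were expected (0.32 times), and in ES-2 none. The other members of the list with U1 read pairs were Rian (2 in ES-1 and 2 in ES indirect) and Meg3 (3 in ES indirect), and neither was called. Beyond the list, 4 of the 102 lincRNAs joined to U1 in ES indirect were called, Malat1 included, and 4 of the 59 in ES merged, where 118 of 3436 and 114 of 2249 of all partners were. They are named after their values were seen. In ES indirect they were Snhg5 (4 read pairs, 15.3 times, adjusted exact p = 0.00196), Fam169b (3, 8.02 times, adjusted exact p = 0.0162) and 2610035D17Rik (5, 3.04 times, adjusted exact p = 0.0449), each at 2 distinct starts. In ES merged they were A330033J07Rik (8 read pairs, 6 of them in ES-2), 9530052E02Rik (6), 4933407K13Rik (4) and Gm7822 (4), the last 3 from ES-1 alone and each at 1 start.

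Of 9 other small noncoding RNAs, 4 were joined to U1 in ES-1, 2 in ES-2 and 3 in ES indirect, and none was called. With so few members joined, that lies near the share of all partners, 115 of 1809 in ES-1. U3, the snoRNA of the small-subunit processome, had fewer U1 read pairs than expected, with 47 against 113.9 in ES-1 and 63 against 495.6 in ES indirect, and 2 in ES-2. The 7SK RNA, which restrains the elongation factor P-TEFb, had 5 against 6.01 in ES-1, 2 in ES-2 and 5 against 5.54 in ES indirect. Rmrp had 17 against 25.8 in ES-1 and 2 against 9.09 in ES indirect, and U8 had 8 against 4.05 in ES-1. The mRNAs of 10 U1 snRNP proteins and 10 SR proteins, which bind exons and bring U1 to splice sites, had few U1 read pairs. Snrpb, an Sm protein mRNA, had 4 in ES-1 against 10.4 expected. Snrpd3 and Srsf3 had 1 each in ES-2, and Srsf1 and Srsf4 1 each in ES indirect. None was called, where 115 of all 1809 partners were in ES-1, 12 of 769 in ES-2 and 118 of 3436 in ES indirect. Apart from Snrpb, all had fewer than the 3 read pairs a call needs, so for them the lack of a call is uninformative.

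The mRNAs with most U1 read pairs in both ES assays were mostly not called either. Dnahc7b, which encodes a dynein heavy chain, led with 99 in ES-1 (0.42 times) and 1 in ES-2, and all these fragments held a ribosomal run. Rpl3, which encodes a ribosomal protein, had 36 in ES-1 (0.61 times) and 2 in ES-2, with no ribosomal run, and over all libraries 7 of its 35 clean intronic fragments started at the first base of chr15:79913318-79913350. Dcun1d4 had 15 and 15, of which 14 and 15 were under 20 nt. Il1rapl1 (19 and 2), Suv420h2 (7 and 11), Cntnap5b (13 and 3), Gm20388 (10 and 6) and Fry (8 and 6) were not called in either. Atp8b1 had 16 in ES-1 (2.14 times, adjusted exact p = 0.0269) and 4 in ES-2, and Vsig8 3 in ES-1 and 12 in ES-2 (13.5 times, adjusted exact p = 1.22e-07), but all of these fragments held a ribosomal run. In ES indirect, the called mRNAs with most U1 read pairs were Btbd9 (39, 1.53 times, adjusted exact p = 0.0181), Pwp1 (16, 2.71 times, adjusted exact p = 0.00447) and Gpi1 (13, 3.34 times, adjusted exact p = 0.00312), named after their values were seen. Their fragments had 16, 2 and 9 distinct starts.

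Messenger RNA ends joined to U1 were then compared with all mRNA ends not joined to U1 in the same library. The files name the region of an mRNA end as intron, coding exon or UTR. Many of these ends could not be trusted. Of the 2306 mRNA ends of ES-1, 64.3% matched the genome at their stated position within 15% of mismatches and 31.8% held a ribosomal run. In ES-2 (661 ends) it was 42.4 and 40.2%, in ES indirect (5317 ends) 4256 and 334 ends, and in MEF (70 ends) 41.4 and 15.7%. Clean ends, defined after the data were seen, were those that matched, had at least 20 nt and held neither linker pieces nor ribosomal runs. They made up 41.0, 19.1, 68.6 and 18.6% of the U1-joined mRNA ends of these libraries, in the same order. Of the mRNA ends not joined to U1, 44.4, 22.2, 68.3 and 3.57% were clean.

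The intron share of the U1-joined mRNA ends was 53.7% in ES-1 against 53.5% of the other mRNA ends (odds ratio 1.01, adjusted exact p = 1), 53.1% in ES-2 against 58.0% (0.82, adjusted exact p = 0.0428), 74.0% in ES indirect against 76.9% (0.86, adjusted exact p = 1.72e-05) and 87.1% in MEF against 81.2% (1.56, adjusted exact p = 0.42, two-sided Fisher's exact test). U1-joined ends were thus slightly less often intronic in ES-2 and ES indirect. Among clean ends this was so in ES-1 too, with 22.2% of 945 against 26.4% (0.80, adjusted exact p = 0.0110), and in ES-2 it did not pass the test (17.5% of 126 against 24.5%, 0.65, adjusted exact p = 0.15). UTR ends were more frequent there: 25.4% against 20.9% in ES-2 (1.29, adjusted exact p = 0.0270) and 11.7% against 9.71% in ES indirect (1.23, adjusted exact p = 1.72e-05), while coding exons did not pass the test in any library, with 14.3% against 13.4% in ES indirect (adjusted exact p = 0.17). In ES indirect the lower intron share passed the test among clean ends too (odds ratio 0.825) and did not with every line counted (0.965). Against mRNA ends joined to U2, U4, U5 or U6 it did not pass the test (0.975), and the direction turned when these ends were clean (1.09).

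Intronic ends joined to U1 lay on the sense strand more often than other mRNA ends in ES indirect. Of the U1-joined intronic ends, 79.1% of 3855 lay on the sense strand of the gene, against 71.0% of 174723 others (odds ratio 1.55, adjusted exact p = 5.39e-29). Among clean ends it was 92.7% (91.6 to 93.7) against 82.7%, and it did not pass the test against clean ends joined to U2, U4, U5 or U6 (odds ratio 0.86) or to snoRNA (1.15). In ES-1 the sense share was 52.0% against 48.6% (1.15, adjusted exact p = 0.0446) and in ES-2 52.9% against 50.4% (1.11, adjusted exact p = 0.44), near an even split. Among clean ends it was 81.7% against 75.6% in ES-1, and the clean odds ratio of ES merged (1.61) was 1.23 and did not pass the test with equal partner positions collapsed, and turned to 0.516 with the partner gene as a stratum.

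The distance to the gene start depended on which ends were taken. The median sense intronic end joined to U1 lay 28955 bp into the gene in ES-1, 30504 bp in ES-2 and 35766.5 bp in ES indirect, beside 29067, 23886 and 39619 bp for ends joined to another mRNA. Among clean ends it was 10805 bp in ES-1 (n = 170), 23973 bp in ES-2 (n = 17) and 31984 bp in ES indirect, beside 19560, 16985 and 35262 bp. MEF had 34 such ends, with a median of 120609 bp, and 5 of them were clean. Within 5000 bp lay 25.2% of the U1-joined ends of ES-1 against 22.6% of the others (odds ratio 1.16, adjusted exact p = 0.29), 28.7% against 25.8% in ES-2 (1.16, adjusted exact p = 0.49) and 10.9% against 9.86% in ES indirect (1.12, adjusted exact p = 0.28). None passed the test. Among clean ends it was 38.2% against 28.4% in ES-1 (1.56, adjusted exact p = 0.0122). Within 1000 bp it was 3.48% against 1.90% in ES indirect (1.86, adjusted exact p = 8.14e-08).

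Among the shares compared in ES indirect, that of ends near an annotated 5′ splice site had the largest odds ratio. In ES indirect, 165 of 3048 sense intronic ends joined to U1 lay within 100 nt of one, 5.41% (4.66 to 6.27), against 1.85% (1.78 to 1.93) of 123989 others (odds ratio 3.04, adjusted exact p = 6.47e-31). Among clean ends it was 147 of 2255, 6.52% (5.57 to 7.61), against 1.75%, and with equal partner positions collapsed 112 of 1861, 6.02%, against 1.79%. With the partner gene as a stratum, the odds ratio was 2.73 for all ends and 3.04 for clean ones. Of the 281 clean U1-joined ends within 200 nt of a 5′ splice site, 233 (82.9%) lay downstream of it, in the intron, beside 79.7% of 2466 for ends joined to another mRNA. Per 100 nt of distance of the fragment's middle, the first 100 nt of the intron held 5.28% (4.43 to 6.28) of the clean U1-joined ends and the next 100 nt 4.04%. For ends joined to another mRNA these were 1.17 and 1.72%, and for ends joined to snoRNA 1.67 and 1.46%. Ends joined to U2, U4, U5 or U6 also lay near 5′ splice sites, 4.98% (4.08 to 6.07) of 1847 within 100 nt, and U1 did not pass the test against them (odds ratio 1.09, adjusted exact p = 1). Their profile held 2.76% (2.00 to 3.80) in the first 100 nt and 4.76% (3.73 to 6.06) in the next, so that their higher bin of the pair was the second and that of U1 the first. This difference was not tested.

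In ES-1, 7.87% (6.02 to 10.2) of 635 U1-joined sense intronic ends lay within 100 nt of a 5′ splice site against 7.47% of the others (odds ratio 1.06, adjusted exact p = 0.88), and in ES-2 14.4% (9.995 to 20.2) of 181 against 12.7% (1.15, adjusted exact p = 0.84). Few of these were clean, 6 of 170 clean ends in ES-1 and 2 of 17 in ES-2. The odds ratio of ES indirect was 2.79 times that of ES-1 and ES-2, taken with the library as a stratum (95% interval 2.09 to 3.73, Wald test of the log odds ratio, n = 3048 and 816 U1-joined ends, adjusted p = 1.50e-11 over 5 tests). It was 2.87 times that of the former alone and 2.64 times that of the latter alone. These 2 assays had unequal shares of all ends near splice sites, and pooled without the stratum they gave an odds ratio of 0.91, below that of either. For the sense share the ratio was 1.36 (1.20 to 1.54, n = 3855 and 1562, adjusted p = 6.06e-06), and for the intron share 0.89 (0.81 to 0.98, n = 5317 and 2967, adjusted p = 0.0293). The latter was 0.85 against ES-1 and 1.05 against ES-2, and 1.06 among clean ends. The share within 5000 bp of the gene start (0.97 times, n = 3048 and 816, adjusted p = 0.75) did not pass the test. These tests compare the read ends of the libraries and hold no spread between libraries of 1 protocol. The share of 100-nt windows around intronic ends that held GGTAAG on the gene strand, 6 letters complementary to the 5′ end of U1, was 2.20% (1.79 to 2.72) in ES indirect against 1.54% (odds ratio 1.44, adjusted exact p = 0.00770), 1.23% against 1.29% in ES-1 and 1.75% against 1.38% in ES-2, neither of which passed the test (adjusted exact p = 1). Among clean ends it was 7 of 208 in ES-1 (3.37%, 1.64 to 6.78) against 1.16% (odds ratio 2.96, adjusted exact p = 0.0248), none of 22 in ES-2 and 2.59% against 1.68% in ES indirect (1.56, adjusted exact p = 0.00443). With equal partner positions collapsed as well, the clean ends of ES merged gave an odds ratio of 0.513, and those of ES indirect 1.43, which did not pass the test. The motif in ES indirect did not pass it with the partner gene as a stratum (1.35) or against ends joined to U2, U4, U5 or U6 (1.41), nor among clean ends in the same settings (1.34 and 1.21) or against clean ends joined to snoRNA (1.17).

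**Figure D5:**
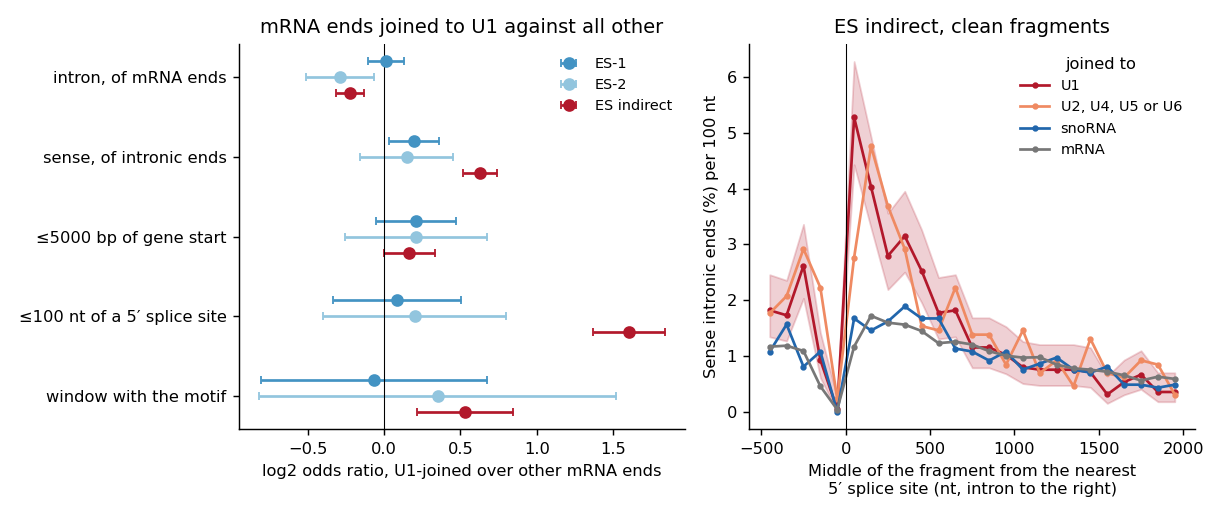
Left: log2 odds ratio (x axis) of U1-joined against other mRNA ends for 5 shares (rows) in ES-1, ES-2 and ES indirect, with 95% intervals. Right: share of clean sense intronic ends of ES indirect (%, y axis) by distance of the fragment's middle from the nearest 5′ splice site (nt, 100-nt bins, intron to the right), by the RNA joined, with the 95% Wilson interval for U1. The U1 line peaks at 5.28% in the first 100 nt of the intron.

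The clean U1-joined ends near 5′ splice sites in ES indirect lay at 110 splice sites of 109 genes, 85 of them with 1 read pair. Of the 110 introns 109 began with GT, and of the 9 bases around each site 3 to 9 (median 6) could pair with bases 3 to 11 of U1. The sites came from the annotation, and the same count was not made at other annotated sites. These values therefore do not set the sites near U1-joined ends apart from other 5′ splice sites. The U1 fragment joined near the 110 sites did not hold bases 3 to 11 in any of the 147 read pairs (interval up to 2.55%). It held the Sm site in 78.9% (71.6 to 84.7). Among the 2108 clean read pairs farther away, the pairing bases were held in 0.996% (0.653 to 1.52) and the Sm site in 63.2% (61.2 to 65.3). The loop sequence was held in 35 of the 147 and 527 of the 2108. The sequenced U1 fragments joined near splice sites thus lay mostly in the 3′ part of U1, as they did elsewhere in ES indirect. Read length limited which bases could be seen, so the 5′ end of the ligated U1 may have gone unread.

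The sites printed here were chosen after their values were seen, as the 2 with the most read pairs and, of those with 3, a pair with 8 pairing bases. Each line gives the last 8 exon bases and the first 20 intron bases on the gene strand in NCBIM37, with capitals on the bases, from 3 before to 6 after the start of the intron, that equal the complement of bases 3 to 11 of U1, shown above as ACTTACCTG.
Mlf1ip, chr8:47637474-47637501, plus strand: aacccggGGTAAGTgctgccgccccgaa
Nap1l1, chr10:110932424-110932451, plus strand: acccaaAGGTgAGcagaactgtgctggc
Ptpn11, chr5:121621970-121621997, minus strand: tctgttAGGTAAGTtgggaggtaatgag
Xrcc5, chr1:72428295-72428322, plus strand: ccattCAGGTgAGTgtgctcacccgtct
Mlf1ip, a centromere protein gene, had 5 read pairs with U1 at RNA2 here, all with 1 fragment that began 92 nt into the intron, and 7 of 9 bases could pair. Nap1l1, a histone chaperone gene, had 4 with 2 fragments, 33 and 37 nt away, and 6 of 9 bases. Ptpn11, the gene of the phosphatase SHP2, had 3 with 1 fragment 38 nt away and 8 of 9 bases, all with U1 at RNA1. Xrcc5, the Ku80 gene of DNA repair, had 3 with 1 fragment that began at the first intron base, and 8 of 9 bases. Mlf1ip was among the called partners of U1 in ES indirect (7 read pairs at 3 distinct starts, 12.5 times, adjusted exact p = 3.61e-05). So was Nap1l1 (6 read pairs at 4 starts, 4.11 times, adjusted exact p = 0.0122). Both calls counted the read pairs for which the sites were picked, so they add no separate evidence. Whether they held with equal positions on U1 collapsed is not given here. Most genes had a single clean U1-joined intronic end: 896 of 1368 genes with clean sense intronic ends in ES indirect had 1. Rad51l1 led with 14 at 10 positions, then Gpi1 with 11 at 7 and Wwox with 11 at 9. None of those of Rad51l1 and Gpi1 and 1 of those of Wwox lay within 100 nt of a 5′ splice site.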

How the data were processed

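Each deposited file lists read pairs of 1 MARIO library and holds no measured value, only 2 fragments with position, strand, sequence, RNA type, name and, for mRNA, region. Per the study's methods, the authors removed duplicates with equal barcodes, located the linker, mapped the fragments uniquely and annotated them. The submitters' processing notes name TopHat2 2.1.1 and mm9 (NCBIM37). No per-sample column was left unused (0).

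Read pairs with equal coordinates of both fragments were collapsed to 1. Totals ranged from 373978 to 2310134 read pairs. U1 fragments were aligned to the annotated U1 genes to place their ends. Gene and splice-site positions came from GENCODE annotation of that build. Read pairs were put, in order, into ribosomal, unannotated, same RNA, within 2000 bp, and between different RNAs, and the last class served the partner tests (one-sided Fisher's exact test). Shares of mRNA ends were compared by two-sided Fisher's exact tests. Benjamini-Hochberg adjustment ran over all RNA pairs observed, and over the 5 sets of libraries for each share (and 3 regions for the intron share). Intervals are 95% Wilson intervals. Python 3.11.15, pandas 2.3.3, numpy 2.4.6, scipy 1.17.1, pysam 0.24.0, samtools 1.23.1 and matplotlib 3.10.9 were used, and the scripts were tested on simulated data.

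Clean fragments matched the genome at the stated position (up to 15% mismatches), had at least 20 nt, no 8-base run of the linker and no 16-base run found in at least 20 ribosomal fragments. Named were the members of the lists with a U1 read pair, partners called in both ES assays (up to 10), the 10 mRNAs with most read pairs among those joined to U1 in both, and the 5 leading loci. U1 and these lists were chosen with earlier results of these data known. Alternatives were every line, fragment length, alignment of the U1 end, partner sequence, side of the linker, comparison ends, partner gene as stratum, limits of distance and motif, and each ES assay left out. Chosen after seeing the data were those on clean fragments, on read pairs of 90 and 100 nt and with the library as a stratum (Mantel-Haenszel). So were those on linker pieces and on equal positions on U1, which were applied to U1 read pairs only. The segments of U1 in which junctions were counted were also chosen then.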

Additional observations from a re-analysis of the deposited data

Results flagged for a closer look

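The odds ratio for lying within 100 nt of a 5′ splice site, U1-joined against other sense intronic ends, was 3.04 in ES indirect and 1.09 in ES-1 and ES-2 with the library as a stratum, and the former was 2.79 times the latter (95% interval 2.09 to 3.73, Wald test, n = 3048 and 816 U1-joined ends, adjusted p = 1.50e-11). Among clean fragments it was 3.86 times (1.85 to 8.05, n = 2255 and 187, adjusted p = 0.00156), resting on 6 near ends of 170 in ES-1 and 2 of 17 in ES-2. Against ends joined to U2, U4, U5 or U6 in ES indirect, U1 did not pass the test (odds ratio 1.09, and 1.14 among clean ends). The odds ratio for the sense strand was 1.55 in ES indirect and 1.14 in ES-1 and ES-2, 1.36 times (1.20 to 1.54, n = 3855 and 1562, adjusted p = 6.06e-06), and 1.80 times among clean fragments (1.25 to 2.59, n = 2433 and 230, adjusted p = 0.00436). The clean odds ratio turned to 0.516 in ES merged with the partner gene as a stratum, and to 0.856 in ES indirect against ends joined to U2, U4, U5 or U6. The odds ratio for introns was 0.86 in ES indirect and 0.96 in ES-1 and ES-2, 0.891 times (0.81 to 0.98, n = 5317 and 2967, adjusted p = 0.0293), but 1.05 times that of ES-2 alone and 1.06 times among clean fragments (n = 3647 and 1071, adjusted p = 0.49). They were singled out because the same comparison gave different sizes in these libraries. The tests treat read ends as the units and compare these libraries, not the crosslinking protocols. ES indirect is 1 library, so protocol and library cannot be told apart.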

How the results depend on the processing

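No paired analysis was possible because the groups used here share only 1 replicate number. Odds ratios below set U1-joined ends against other mRNA ends, and their cause of change was not tested. In ES merged, the U1 share of 0.816% became 0.749% with every line counted, 0.906% with both fragments of at least 20 nt, 0.626% with equal positions on U1 collapsed and 0.794% without read pairs of 90 and 100 nt, and 0.337 to 1.07% with 1 ES assay left out. In the same order it became 0.646, 1.17, 0.926 and 1.63% in ES indirect, and with the first 3 of these 0.173, 0.312 and 0.0939% in MEF. Self pairs, 2.72% of the U1 read pairs of ES merged, became 3.04% (20 nt), 1.76% (collapsed on U1) and 1.03% (without 90 and 100 nt), and 1.46 to 2.94% with 1 assay left out. In ES indirect they became 25.2% (every line), 24.1, 13.7 and 21.1%, and in MEF 66.4, 60.7 and 22.8%.

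Called partners in ES merged (114) became 198 with every line, 45 with U1 at RNA2, 58 with at least 5 read pairs, 24 collapsed on U1, and 12 to 115 with 1 assay left out. In ES indirect (118) they became 219 with every line, 63 with U1 at RNA1, 201 with at least 2 read pairs, 31 with at least 5 and 35 collapsed on U1. The 1 call in MEF became 3 with at least 2 read pairs and 0 with U1 at RNA2, with at least 5 and collapsed on U1.

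The intron odds ratio of ES merged (0.92, not called) passed the test at 0.84 (20 nt), 0.849 (matching position), 0.905 (against snoRNA-joined ends), 0.795 (clean), 0.751 (clean without Rpl3) and 0.78 (clean, library as stratum), and was 0.819 to 1.01 with 1 assay left out. In ES indirect (0.86) the call was lost at 0.965 (every line) and 0.975 (against U2, U4, U5 and U6), and the direction turned at 1.08 (clean, against snoRNA) and 1.09 (clean, against those snRNAs). In MEF (1.56) it turned at 0.948 (matching position) and 0.552 (against those snRNAs).

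The sense odds ratio of ES merged (1.12) passed the test at 1.12 (U1 ends aligning to U1), 1.17 (against snoRNA), 1.23 (against those snRNAs), 1.61 (clean), 1.52 (clean without Rpl3) and 1.14 (library as stratum), turned at 0.998 (matching position) and 0.516 (clean, gene as stratum), and was 1.11 to 1.15 with 1 assay left out. In ES indirect (1.55) it was 1.15 (clean, against snoRNA, call lost) and 0.856 (clean, against those snRNAs). In MEF (1.23) it turned at 0.991 (20 nt), 0.746 (U1 at RNA1), 0.774 (gene as stratum), 0.995 (against snoRNA) and 0.746 (against those snRNAs).

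For the gene start, ES merged (1.10) passed the test at 1.2 (every line), 1.31 (20 nt), 1.54 (clean), 2.22 (clean, partner positions collapsed), 1.54 (clean without Rpl3), 1.49 (clean, against snoRNA) and 1.52 (clean, library as stratum). ES indirect (1.12) passed it at 1.15 (clean), 1.16 (clean without Rpl3) and 1.86 (1000 bp), and turned at 0.869 (gene as stratum), 0.978 (clean, against those snRNAs) and 0.903 (clean, gene as stratum). MEF (0.87) turned at 1.64 (U1 at RNA2) and 5.43 (gene as stratum).

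For the 5′ splice site, 18 of 20 alternatives kept direction and call in ES indirect (3.04), and the call was lost at 1.09 and 1.14 (all and clean ends against U2, U4, U5 and U6). ES merged (0.91, not called) turned at 1.08 (every line), 1.12 (20 nt), 1.19 (U1 at RNA2), 1.03 (500 nt), 1.09 (library as stratum) and 1.02 (clean, library as stratum), and was 1.06 to 1.15 with 1 assay left out. For GGTAAG, ES merged (1.01) turned at 0.995 (every line), 0.384 (U1 at RNA2), 0.927 (against snoRNA), 0.835 (collapsed on U1), 0.513 (clean, partner positions collapsed), 0.894 (GTAAG) and 0.923 (200-nt window), passed the test at 2.64 (clean), 2.8 (clean without Rpl3) and 2.66 (clean, library as stratum), and was 0.955 to 1.28 with 1 assay left out. In ES indirect (1.44) the call was lost at 1.41 (U1 at RNA1), 1.35 (gene as stratum), 1.15 (against snoRNA), 1.41 (against those snRNAs), 1.34 (collapsed on U1), 1.43 (clean, partner positions collapsed), 1.17 (clean, against snoRNA), 1.21 (clean, against those snRNAs), 1.34 (clean, gene as stratum) and 1.15 (GTAAG). Alternatives on clean fragments were not run for MEF, where 70 mRNA ends limit every comparison.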
